A study of Mus musculus with 1 sample.

Results

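Endothelial-like cells carrying 2 or more arterial genes made up 104 of the 10139 cells that passed the cell filter in the postnatal mouse adrenal medulla. They were chosen by counting genes with at least 1 unique molecular identifier (UMI, the tag that marks 1 captured mRNA molecule). A member had a UMI of at least 4 of 7 endothelial genes (*Emcn*, *Cd34*, *Pecam1*, *Cdh5*, *Kdr*, *Plvap* and *Egfl7*) and of at least 2 of 6 arterial genes (*Gja4*, *Gja5*, *Hey1*, *Sox17*, *Sema3g* and *Efnb2*). It had fewer than 3 of 6 cell cycle genes, fewer than 4 of 7 chromaffin genes and fewer than 5 of 9 adrenal cortex genes. The values of those genes describe how the cells were picked and are not findings about them. The members are compared below with the 1476 other endothelial-like cells, which met the same limits but had a UMI of at most 1 arterial gene.

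The study profiled adrenal medullae of untreated wild type mice at postnatal day 15 by droplet-based single-cell RNA sequencing, to describe the cell types of the medulla after birth. The 10 adrenals of 5 mice of mixed sex were pooled into 1 library, to which 10000 viable cells were added, and the deposited table held 11214 barcodes. Excess cortex had been trimmed away by hand, so the vessels of the medulla, of the remaining cortex and of the capsule cannot be told apart in this suspension. With 1 library of pooled animals there is no biological replicate, and no test between groups was possible. The intervals in parentheses are exact 95% intervals that cover counting error only.

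Arteries, capillaries and veins are lined by endothelial cells that share a common programme and differ in a smaller set of genes. Arterial identity is built downstream of VEGF and Notch signalling and of SOXF transcription factors. In the adrenal gland, arterioles enter through the capsule and feed a dense bed of fenestrated capillaries that crosses the cortex towards the medulla, and separate medullary arterioles reach the chromaffin cells directly.

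The 6 arterial genes of the rule were present in very unequal numbers. *Efnb2*, which encodes ephrin-B2, the membrane ligand of the venous receptor EphB4, had a UMI in 94 of the 104 members. *Sox17*, a SOXF transcription factor, had a UMI in 80 members. *Sema3g*, a secreted semaphorin, was found in 29 members. *Gja4*, which encodes the gap junction protein connexin 37, was found in 14 and *Hey1*, a transcriptional repressor switched on by Notch, in 10. *Gja5*, encoding connexin 40, gave 1 UMI in 1 member. The most common combination was *Sox17* with *Efnb2* and none of the other 4 genes, in 57 members (54.8%), followed by *Sema3g* with *Efnb2* in 14.

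The frequent genes were also found outside the members. *Efnb2* stood at 129 CPM (UMIs of the gene per 1000000 UMIs of the group) in the other endothelial-like cells, with a UMI in 22.0% of them, and at 115 CPM in 355 cycling endothelial-like cells. In the 583 immune-like cells, taken as a background, it was found in 0.515% of cells at a median of 1617 UMIs per cell. *Sox17* reached 28.8 CPM in the other endothelial-like cells and had no UMI in the immune-like cells, which allows a level of up to 2.75 CPM there (3 counts). *Gja4* reached 0.274 CPM in the other endothelial-like cells, from 1 UMI. *Hey1* was not particular to vessels, with a UMI in 4.90% of 2675 chromaffin-like cells. The arterial label thus rested, for 57 members, on *Sox17* and *Efnb2* alone, and the cells are therefore called members and not arterial cells.

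**Figure D1:**
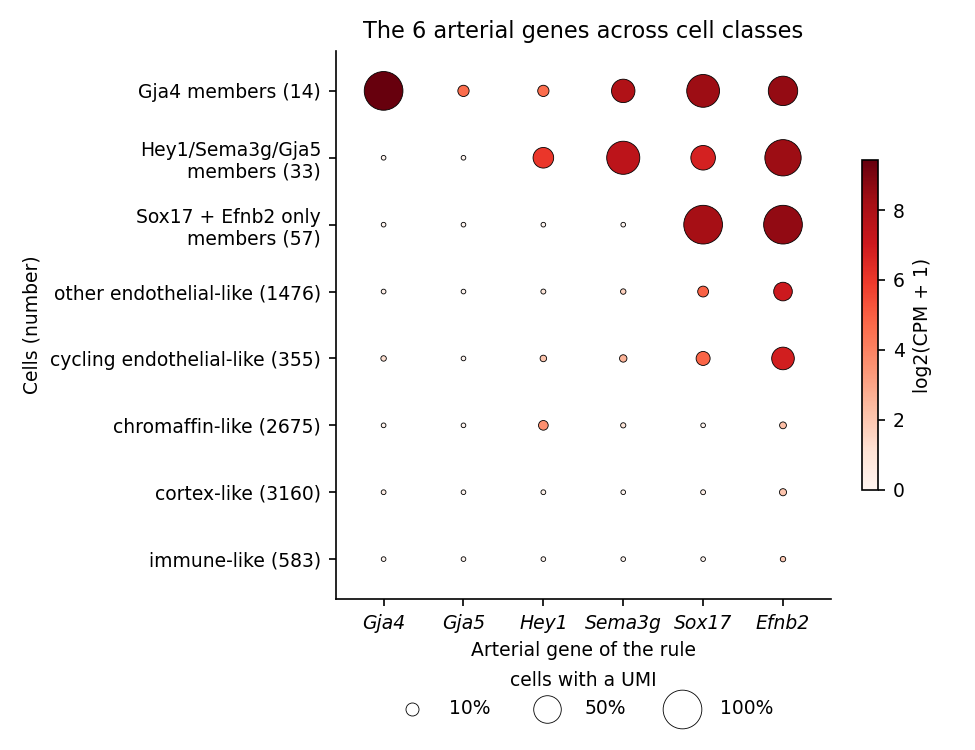
The 6 arterial genes of the rule in the members, divided by the genes they carried, and in other cell classes, with circle area for the percent of cells with a UMI and colour for the level in CPM on a log scale. *Gja4* stands in the 14 *Gja4* members by construction, while *Efnb2* is also seen in 22.0% of the other endothelial-like cells.

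Depth bore on membership. The members had a median of 3584 UMIs per cell (range 837 to 11611) and the other endothelial-like cells a median of 1999. Of the non-cycling endothelial-like cells, 2.08% of those under 1000 UMIs were members, against 21.3% (15.1 to 28.8) of those with 5000 or more. Over all 1580 such cells the share was 6.58% (5.41 to 7.92). When every cell was first thinned to 1000 UMIs and the rule then applied, 21 of 1165 cells were members, or 1.80%. The share belongs to the rule at this depth and is not an estimate of the arterial share of the gland.

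The cells just outside the rule were the 433 with exactly 1 arterial gene, at a median of 2746 UMIs. That gene was *Efnb2* in 325 of them, *Sox17* in 96, *Sema3g* in 8, *Hey1* in 3 and *Gja4* in 1. Just inside were 87 cells with 2 arterial genes, at a median of 3663 UMIs. A further 14 members had 3 arterial genes and 3 members had 4. The doublet caller Scrublet marked 677 barcodes of the library and none of the 104 members, which allows a share of up to 3.48%.

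**Figure D2:**
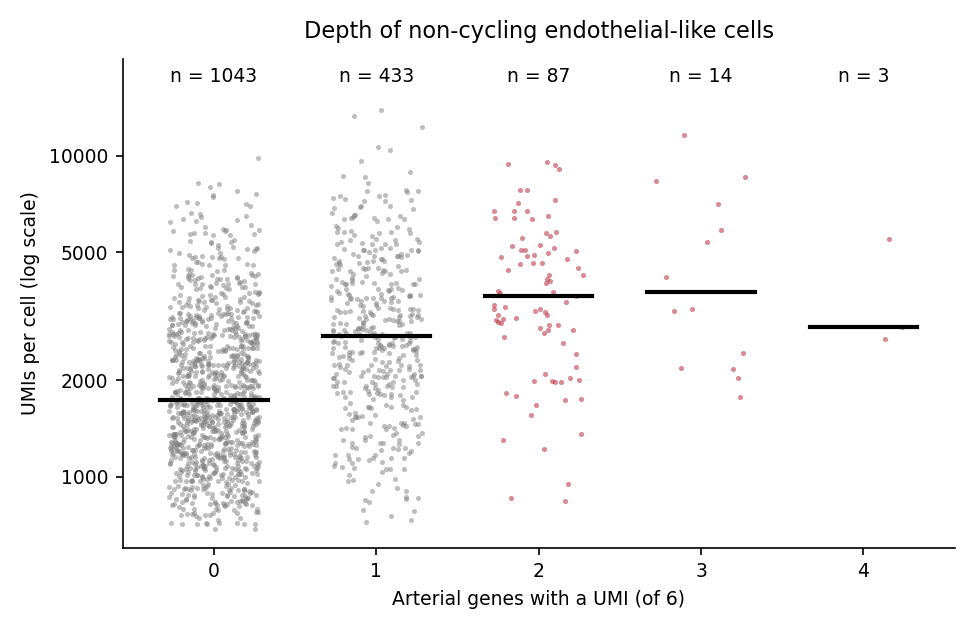
UMIs per cell (vertical axis, log scale) by the number of arterial genes with a UMI, for the 1580 non-cycling endothelial-like cells, with 1 point per cell and bars at the medians. The median is 1736 UMIs in cells with no arterial gene and 3663 in cells with 2.

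As a description of the genes that chose the members, 14 of the 15 non-cycling endothelial-like cells with *Gja4* had another arterial gene, as did 29 of 37 with *Sema3g* and 10 of 13 with *Hey1*. Of 176 cells with *Sox17*, 80 had another, and of 419 with *Efnb2*, 94. The median depth of these cells ran from 2681 UMIs for *Gja4* to 4823 UMIs for *Hey1*.

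Outside the genes of the rule, the members differed little from the other endothelial-like cells. Among 6090 genes with a mean of at least 20 CPM over the groups, 26 were at least 2-fold higher in the members (0.427%) and 27 at least 2-fold lower (0.443%), on the scale of CPM + 10, which is the scale of every fold given here. Of the 26, 15 were under 20 CPM in the other endothelial-like cells and passed the filter only through the members, and 13 of the 27 were under 20 CPM in the members. The median fold over all 6090 genes was 1.04, and 3451 had a fold above 1. The members held 432456 UMIs in all, so that 1 UMI was worth 2.31 CPM.

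The leading genes were the 20 with the largest fold among those with a UMI in at least 25% of the members. *Gm35533*, a long intergenic non-coding RNA (chr10:100129868-100144126, minus strand, mm10), came first at 189.6 CPM (151 to 235), against 48.8 CPM in the other endothelial-like cells, a ratio of 3.88 (2.95 to 5.07). Of its 82 UMIs, 51 lay in the 14 members with *Gja4*, and the other 90 members stood at 79.5 CPM. *Kitl*, encoding stem cell factor, the ligand of the KIT receptor (chr10:100015630-100100416, plus strand), stood at 234 CPM (190.2 to 284) against 109 CPM, a ratio of 2.14 (1.70 to 2.67). Without the 14 *Gja4* members, a setting chosen after seeing the data, the folds were 1.52 for *Gm35533*, 1.48 for *Kitl*, 1.72 for *Igfbp5* and 2.27 for *Esm1*. *Gm35533* and *Kitl* lie near each other on chromosome 10, and their annotated spans do not overlap.

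Some of the list encode secreted or matrix proteins. *Igfbp5*, encoding an insulin-like growth factor binding protein, had 405 CPM (347 to 469) in the members and 169 CPM in the other endothelial-like cells, a ratio of 2.40 (2.02 to 2.84). The related *Igfbp3* had a ratio of 1.88 (1.44 to 2.43). *Esm1*, encoding the proteoglycan endocan of endothelial tip cells, had 166 CPM (130.3 to 209.7) against 67.7 CPM, a ratio of 2.46 (1.86 to 3.21). *Sparcl1*, a matricellular protein, had a ratio of 2.38 (1.80 to 3.11), but 23 of its 70 UMIs came from members with UMIs of 2 or more mural cell markers. *Nid2*, the basement membrane protein nidogen 2, had a ratio of 1.85 (1.32 to 2.54), and *Pdgfb*, the growth factor with which endothelial cells recruit pericytes, of 1.84 (1.31 to 2.54). The fold of *Pdgfb* was 0.885 when cells were thinned before the rule was applied, which left 21 members.

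The rest of the list held receptors, membrane proteins and regulators. *Clic5*, a chloride intracellular channel protein, had 127 CPM (95.8 to 166) against 51.8 CPM, a ratio of 2.45 (1.78 to 3.33). *Lifr*, the receptor of leukaemia inhibitory factor, had a ratio of 1.99 (1.54 to 2.55) and *Gja1*, encoding connexin 43, of 2.11 (1.42 to 3.06). *Btnl9*, a butyrophilin-like membrane protein, had a ratio of 1.77 (1.47 to 2.12) and *Emp1*, a small membrane protein, of 1.81 (1.48 to 2.20). The fold of *Btnl9* was 0.808 with cells thinned before the rule (21 members) and 0.849 with at least 3 arterial genes (17 members). *Uaca* had a ratio of 2.43 (1.73 to 3.36). *Socs3*, an inhibitor of cytokine signalling, had a ratio of 1.94 (1.38 to 2.68). When cells were thinned before the rule was applied, which left 21 members, its fold was 0.175. *Ascc3*, *Cd24a*, *Ubac1*, *Lgalsl* and *Ppp1r9b* filled the list, with ratios from 1.86 to 2.02.

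Leading genes were also compared at equal depth, in cells of unchanged membership thinned to 1000 UMIs (101 members and 1335 others). *Kitl* was then found in 21.8% of the members and 9.44% of the others, where the unthinned shares were 49.0% and 20.8%. *Igfbp5* was found in 20.8% of the members and 9.89% of the others, and *Gm35533* in 11.9% of the members and 4.34% of the others. The order of the groups was thus the same at equal depth for these 3 genes.

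**Figure D3:**
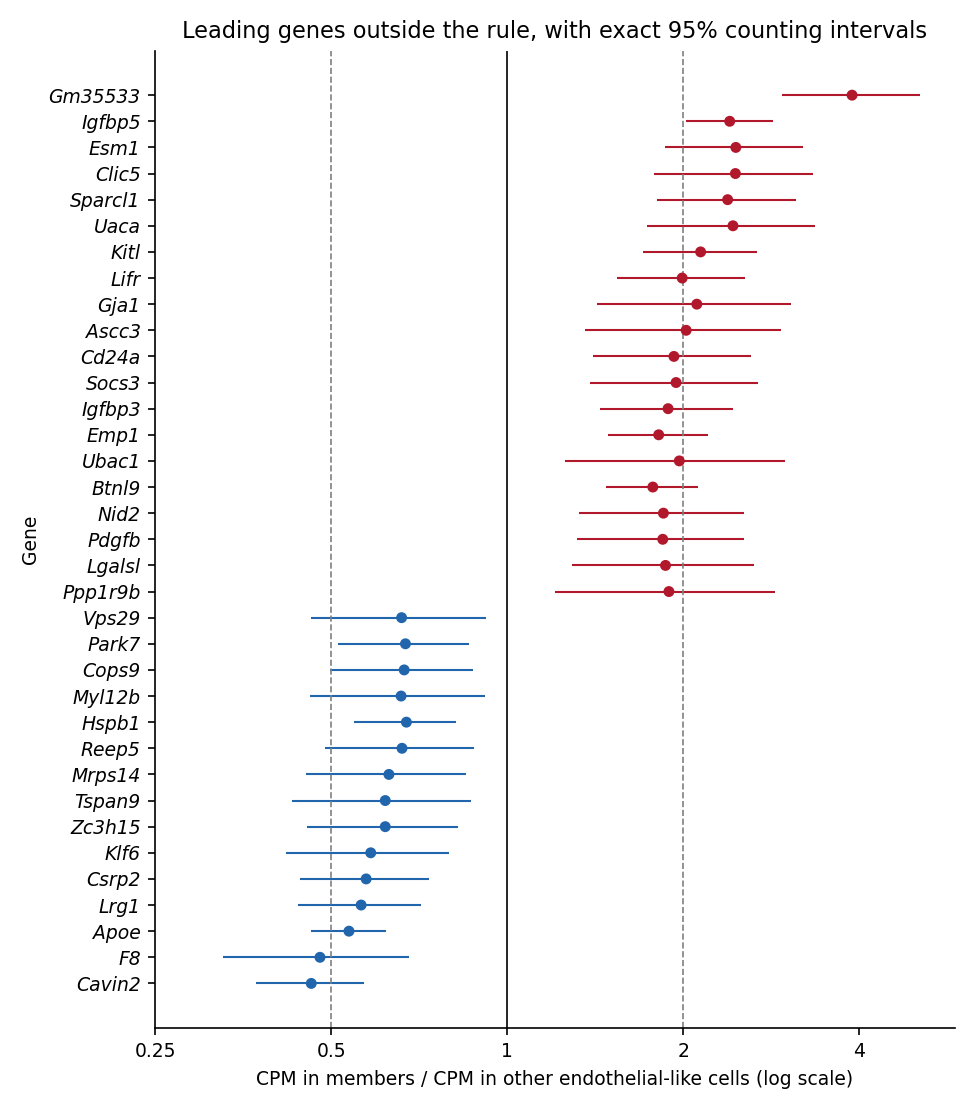
Ratio of CPM in the 104 members to CPM in the 1476 other endothelial-like cells (log scale) for the 20 leading and 15 lowest-ranked genes outside the rule, with points for ratios and lines for exact 95% counting intervals. The ratios run from 3.88 for *Gm35533* to 0.462 for *Cavin2*.

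At the lower end, among genes with a UMI in at least 25% of the other endothelial-like cells, *Cavin2* came first. It encodes a coat protein of caveolae and stood at 219.7 CPM (178 to 269) in the members against 476 CPM, a ratio of 0.462 (0.372 to 0.568). *F8*, coagulation factor VIII, which endothelial cells make, had 76.3 CPM (52.5 to 107) against 159.6 CPM, a ratio of 0.478 (0.326 to 0.679). *Lrg1*, a secreted glycoprotein, had a ratio of 0.562 (0.438 to 0.712). The transcription factor *Klf6* had a ratio of 0.584 (0.418 to 0.796), *Csrp2* of 0.573 (0.442 to 0.733), and *Hspb1*, a small heat shock protein, of 0.672 (0.548 to 0.817). *Apoe*, encoding apolipoprotein E, had a ratio of 0.536 (0.461 to 0.620), and 47.1% of its UMIs in the other endothelial-like cells came from called doublets. Without cells rich in immune markers or red blood cell UMIs the fold of *Apoe* was 1.003. With at least 3 arterial genes the fold of *Hspb1* was 1.009. *Zc3h15*, *Tspan9*, *Mrps14*, *Reep5*, *Myl12b*, *Cops9*, *Park7* and *Vps29* had ratios from 0.618 to 0.669. At equal depth *Lrg1* was found in 10.9% of the members and 25.7% of the others and *Cavin2* in 18.8% of the members and 29.7% of the others, but when cells were thinned before the rule was applied, which left 21 members, the fold of *Cavin2* was 1.06. At equal depth and unchanged membership, *Cops9*, in 18.8% of the members and 17.8% of the others, and *Apoe*, in 29.7% of the members and 29.1% of the others, were not lower in the members.

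Arterial genes that the rule did not use were mostly close to their level in the other endothelial-like cells. Of 24 such genes, 11 passed the filter of 20 CPM, of which 1 was at least 2-fold higher and none lower, with a median fold of 1.13. For this and the lists below, the shares over all 6090 genes tested were 0.427% higher and 0.443% lower. *Mecom*, a zinc-finger transcription factor, was the one called, at 46.2 CPM (28.2 to 71.4) against 12.1 CPM, and it passed the filter only through the members. Of its 20 UMIs, 12 lay in the 14 *Gja4* members, and its fold without them was 1.38. *Unc5b*, a netrin receptor, had a ratio of 2.04 (1.05 to 3.69) from 14 UMIs. *Nrp1*, a co-receptor of VEGF, had 678 CPM (602 to 759.7) against 470.0 CPM, a ratio of 1.44 (1.27 to 1.63). *Fbln2*, a fibulin of elastic fibres, had the smallest fold of the list, at 30.1 CPM (16.0 to 51.4) against 54.0 CPM. *Bmx*, a kinase gene of arterial endothelium, gave 1 UMI, and *Hey2*, *Heyl*, *Edn1* and *Ace* gave none, which allows up to 6.94 CPM for each.

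Venous and capillary genes were present in the members. *Nr2f2*, the transcription factor COUP-TFII that holds back arterial fate, stood at 684 CPM (609 to 767) against 796 CPM, a ratio of 0.860 (0.761 to 0.970). Of 13 venous genes, 7 passed and 1 was at least 2-fold lower, *Vcam1*, with a median fold of 0.862. *Vcam1*, an adhesion receptor for leukocytes, had 6 UMIs in the members and passed the filter only through the other endothelial-like cells, where 33.6% of its UMIs lay in called doublets. Without doublets its fold was 0.616, and the call ended. *Fabp4*, a fatty acid carrier of capillary endothelium, stood at 5825 CPM (5599.6 to 6057) against 5721 CPM, a ratio of 1.02 (0.976 to 1.06). *Gpihbp1*, which holds lipoprotein lipase on the capillary wall, had a ratio of 1.05 (0.976 to 1.12). *Rgcc*, a cell cycle regulator, stood at 1346 CPM (1239 to 1459.7) against 1801 CPM, a ratio of 0.747 (0.685 to 0.813). Of 18 capillary genes, 12 passed, *Esm1* was at least 2-fold higher and *Cd36*, a fatty acid receptor that passed only through the other endothelial-like cells, at least 2-fold lower, and the median fold was 1.19.

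In the Notch pathway, no gene was called in either direction among 12 of 24 that passed, and the median fold was 1.15. The ligand *Dll4* had 39.3 CPM (22.9 to 62.9) against 34.0 CPM. The receptors *Notch1* and *Notch4* had ratios of 1.20 (0.918 to 1.56) and 1.12 (0.759 to 1.61). *Maml3*, a co-activator, had the largest fold, at 1.33, and *Hes1*, a target, had 331 CPM (279 to 389.5) against 257 CPM, a ratio of 1.29 (1.07 to 1.53). *Lfng*, a sugar transferase that tunes the receptors, had the smallest, with a ratio of 0.735 (0.420 to 1.21).

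No gene for receptors and factors of vessel growth was called. Of 21 genes of VEGF, angiopoietin and apelin signalling, 12 passed and 11 had a fold above 1, with a median of 1.19 beside 3451 of 6090 and 1.04 over all genes tested. *Flt1*, encoding VEGF receptor 1, had 1343 CPM (1236 to 1457) against 930.4 CPM, a ratio of 1.44 (1.32 to 1.58), and *Vegfb* had one of 0.567 (0.239 to 1.15). Among 37 endothelial transcription factors, 27 passed, *Mecom* alone was called, and the median was 1.15. *Ets1* had 606 CPM (535 to 684) against 409 CPM, a ratio of 1.48 (1.29 to 1.69). *Sox18*, a SOXF relative of *Sox17*, had a ratio of 1.55 (0.934 to 2.45).

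Genes for vessel tone and junctions were close to the background. Of 28 genes of flow response and vessel tone, 18 passed, *Cavin2* was called lower and the median fold was 1.06. *Cav1*, encoding caveolin 1, had a ratio of 1.78 (1.14 to 2.68), while *Klf2*, a transcription factor induced by flow, had one of 0.923 (0.803 to 1.06). Of 26 genes of TGF-beta and BMP signalling, 15 passed, none was called, and the median was 0.995. *Tgfbr2*, a TGF-beta receptor, had a ratio of 1.59 (1.30 to 1.94) and *Ltbp4*, which stores TGF-beta in the matrix, of 0.673 (0.460 to 0.955). Of 20 junction genes, 15 passed and none was called, with *Gja1* at the top and *Pcdh1*, a protocadherin, lowest at a fold of 0.828.

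Among 34 genes of basement membrane and elastic matrix, 21 passed, *Lamb1* and *Sparcl1* were at least 2-fold higher (*Lamb1* alone without the cells with 2 or more mural markers, where *Sparcl1* had a fold of 1.69), and the median fold was 1.10. *Lamb1*, a laminin chain, had a ratio of 2.74 (1.69 to 4.31). None of the ephrin, semaphorin and guidance genes was called (11 of 21 passed, median 1.18), and neither was any of the 8 clotting genes that passed of 14 (median 0.937). *Thbd*, the anticoagulant receptor thrombomodulin, had a ratio of 1.64 (1.21 to 2.20), with 21 of its 55 UMIs in the 14 members with *Gja4*, at 496 CPM. Without the 3 of these cells that had 2 or more mural markers the level there was 101 CPM, and the other 90 members stood at 87.1 CPM, against 77.3 CPM in the other endothelial-like cells. Of 18 genes of leukocyte adhesion and chemokines, 9 passed, *Vcam1* was again the one called, a call that ended without doublets, and 1 had a fold above 1, beside 3451 of the 6090 (median 0.878). Of 11 genes of IGF and insulin binding, 7 passed and *Igfbp5* was called (median 1.22). Of 22 stress and immediate-early genes, 20 passed, none was called and the median was 1.14, with *Atf3* at a ratio of 1.73 (1.20 to 2.44).

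**Figure D4:**
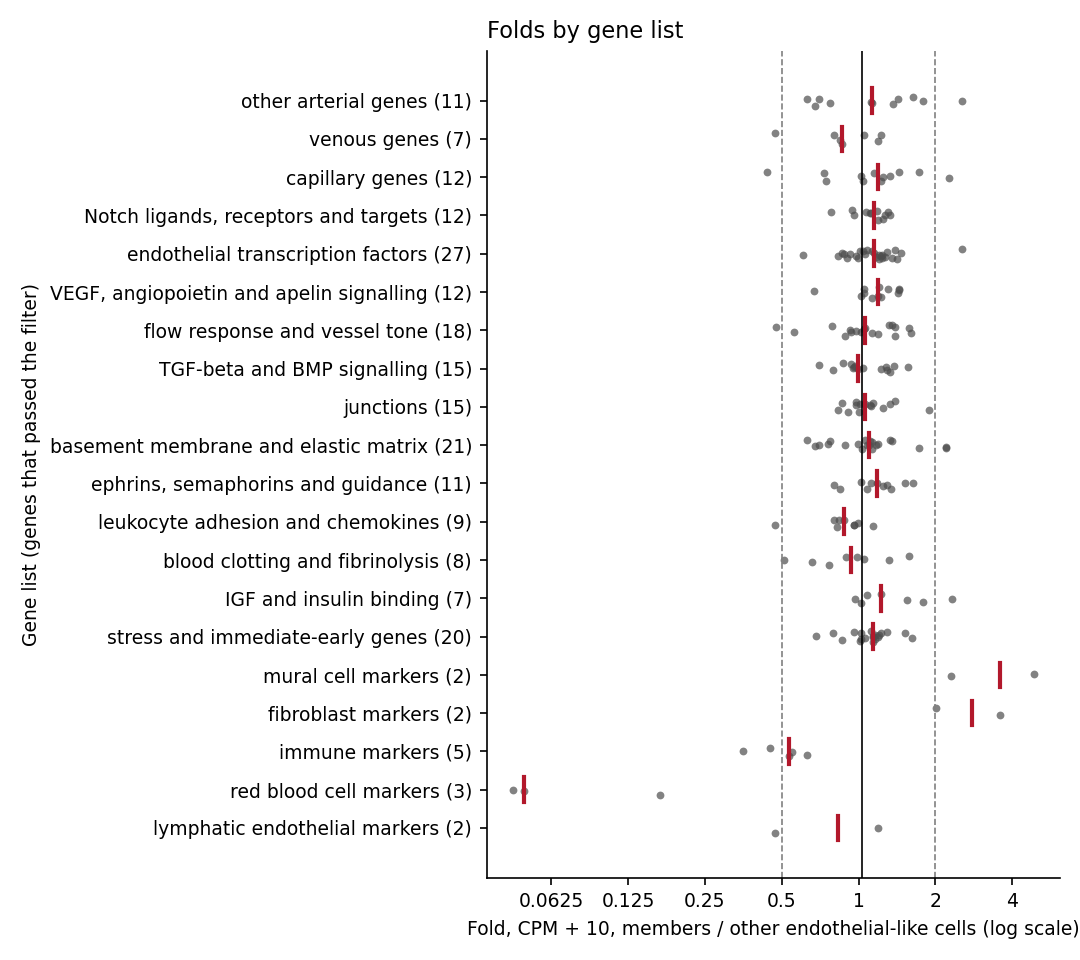
Fold of CPM + 10 in the members against the other endothelial-like cells (log scale) for the genes of each list that passed the filter, with 1 point per gene and a bar at each list median, beside the median of all 6090 genes at 1.04. The median of the venous list is 0.862, of the lymphatic list 0.830 and of the other arterial genes 1.13.

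Markers of other cell types moved with some of these differences. The 9 mural cell markers summed to 164 CPM in the members and 27.7 CPM in the other endothelial-like cells. In the members the most abundant of them were *Tagln* and *Rgs5*, *Cnn1* was at 0, and 6 members had UMIs of 2 or more of these markers. All 19 UMIs of *Rgs5*, a pericyte gene, and all 19 of *Tagln* lay in those 6 members, as did 20 of the 23 UMIs of the fibroblast gene *Dcn*. The 6 fibroblast markers summed to 150.3 CPM against 48.3 CPM, led in the members by *Col1a2*, with *Lum* at 0 there. Without the cells with 2 or more mural markers, 17 genes were at least 2-fold higher, of which 11 were among the 26. *Tagln* then had a fold of 0.643, while *Gm35533* had 2.67, *Igfbp5* 2.36, *Esm1* 2.30 and *Kitl* 1.89.

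Several genes called lower were markers of blood or macrophages. The 5 red blood cell markers summed to 104 CPM in the members and 2478 CPM in the other endothelial-like cells, led by *Hbb-bs*, with *Alas2* at 0 in the members. In the other endothelial-like cells 16.9% of the *Hbb-bs* UMIs came from 1 cell. Any of the 5 markers was found in 32.7% of the members and 20.9% of the others. A setting chosen after seeing the data left out cells with 3 or more immune markers or 5 or more red blood cell UMIs. The folds were then 0.985 for *Hbb-bs*, 0.992 for *Hba-a1* and 1.28 for *Hbb-bt*. These calls ended, as did those of *C1qa* (0.758), *Lyz2* (0.844) and *Ctss* (0.945). The 9 immune markers summed to 194 CPM against 449.7 CPM, led in the members by *Fcer1g*, with *Cd68* and *Adgre1* at 0 there. *C1qa*, a complement gene of macrophages, had 20 UMIs in the members, all in 1 cell, and 73.6% of its UMIs in the other endothelial-like cells lay in called doublets. For the steroid and lipid genes *Akr1cl*, *Akr1c18* and *Apoc1* that share was 68.4%, 60.9% and 76.5%. When doublets were left out, 13 genes were at least 2-fold lower, all of them among the 27. *Cavin2*, *Lyve1* and *Cd36* had folds of 0.461, 0.458 and 0.431 in that setting. The 6 sustentacular markers summed to 20.8 and 21.4 CPM, led in the members by *Lgi4*. The lymphatic markers summed to 358 and 452 CPM, led in the members by *Flt4*, with *Pdpn* and *Mmrn1* at 0 there. In the other endothelial-like cells *Lyve1* led, with 826 of 1647 UMIs. The part of these markers in the other differences was not tested.

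The members were not uniform. Division by the arterial gene they carried, chosen after the values had been seen because *Gja5* was too sparse to divide them, set apart the 14 members with *Gja4*. These cells held 42319 UMIs at a median of 2802 per cell (range 948 to 5500). *Gja4* gave at most 5 UMIs in any of them, and 10 of the 14 also carried *Sox17*, 8 *Efnb2* and 5 *Sema3g*.

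Some genes outside the rule stood at higher levels in these 14 cells than in the other 90 members. Of 818 genes with a mean of at least 200 CPM, 60 (7.33%) were at least 2-fold higher in the *Gja4* members and 22 (2.69%) at least 2-fold lower. Of the 60, 44 were under 200 CPM in the other members and entered through the *Gja4* members, so that they had to stand higher there. Of the 22, 15 were under 200 CPM in the *Gja4* members and entered through the other members, so that they had to stand lower. Both counts are a description only. *Tm4sf1*, a tetraspan membrane protein of endothelium, stood at 3048 CPM (2545 to 3622) in the *Gja4* members and 546 CPM in the others, a ratio of 5.58 (4.45 to 6.98). It was found in 12 of the 14 cells, and the highest single cell held 39 of the 129 UMIs. *Mal*, a membrane proteolipid, stood at 425 CPM (252 to 672) against 28.2 CPM, a ratio of 15.1 (6.75 to 35.3), with UMIs in 6 cells. *Mecom*, whose mean was under 200 CPM, stood at 284 CPM (147 to 495) against 20.5 CPM, a ratio of 13.8 (5.20 to 39.0), with UMIs in 7 cells. *Kitl*, found in 11 of the 14, stood at 851 CPM (596 to 1178) against 167 CPM, a ratio of 5.11 (3.30 to 7.79). Each of these genes except *Tm4sf1* was under 200 CPM in the other members.

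By the naming rule the 10 leading genes were *Npnt*, *Pcsk5*, *Fbln2*, *S100a6*, *Mgp*, *Gm35533*, *Myh11*, *Afap1l2*, *Rgs4* and *Stc1*. Of these, *S100a6*, *Mgp* and *Gm35533* reached the mean of 200 CPM, and the other 7 lay under it and rested on 5 to 15 UMIs in the 14 cells. *Gm35533* stood at 1205 CPM (897 to 1585) against 79.5 CPM, a ratio of 15.2 (9.52 to 24.5), in 9 of the 14 cells. *Npnt*, which encodes the matrix protein nephronectin, had 15 UMIs in 4 of the 14 cells and 2 in the other 90 members. *Mgp*, the matrix Gla protein that curbs vessel calcification, had 1087 CPM (796 to 1449.9) against 69.2 CPM, a ratio of 15.7 (9.56 to 26.3), but stood at 221 CPM in the other endothelial-like cells, to which the ratio was 4.92 (3.57 to 6.62). For *Fbln2* the ratio was 30.7 to the other members and 4.37 to the other endothelial-like cells. *Stc1*, the hormone stanniocalcin 1, had 12 UMIs in 6 cells. *Pcsk5*, a proprotein convertase, had 6 UMIs in 5 cells and none in the other members, and *Myh11*, smooth muscle myosin, had 5 in 4 and none.

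The 250 bases before the annotated starts of these genes were searched on both strands for GTGGGAA, a site of the Notch effector RBPJ, and for ACAATG, a core of SOX sites, since Notch and SOXF factors act on arterial genes. Sequences are those of RefSeq on GRCm38.p6. Of the 6 arterial genes of the rule 4 matched an entry, and none of the 4 held either motif. *Sox17* and *Hey1* had no entry and were not searched. Of 29 leading genes of the members and of the *Gja4* members 21 matched, and *Pcsk5* held GTGGGAA and *Lifr*, before 1 of its starts, ACAATG. Of all 32851 such windows, 5.42% held the first motif and 10.7% the second. The window of *Gja4*, the gene that set the 14 cells apart (chr4:127314040-127314289, minus strand), and that of *Pcsk5* (chr19:17837633-17837882, minus strand), with the match in capitals, read as follows.
Gja4: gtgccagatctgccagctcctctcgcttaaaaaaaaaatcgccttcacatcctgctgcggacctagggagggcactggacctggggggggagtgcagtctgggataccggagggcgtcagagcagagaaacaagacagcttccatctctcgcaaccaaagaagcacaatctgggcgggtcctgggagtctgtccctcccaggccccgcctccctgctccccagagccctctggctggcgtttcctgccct
Pcsk5: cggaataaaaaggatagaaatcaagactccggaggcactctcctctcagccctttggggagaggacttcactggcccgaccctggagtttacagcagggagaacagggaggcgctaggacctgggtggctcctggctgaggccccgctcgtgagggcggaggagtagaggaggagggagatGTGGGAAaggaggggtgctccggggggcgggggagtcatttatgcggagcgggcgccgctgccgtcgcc
A match of letters is a description and not a binding site.

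Some genes stood at lower levels in the *Gja4* members. Each UMI of the 14 cells was worth 23.6 CPM, so many folds rested on a handful of molecules. *Rgcc*, of the capillary list, stood at 567 CPM (363 to 844) against 1430.3 CPM, a ratio of 0.397 (0.252 to 0.596). *Cd36*, of the same list, stood at 70.9 CPM (14.6 to 207) against 10.3 CPM, a ratio of 6.91 (1.01 to 40.9), from 3 UMIs in 2 cells and with a mean under 200 CPM, and the ratio to the other endothelial-like cells was 1.42 (0.290 to 4.22). *Btnl9*, which is on no list and is a leading gene of the members as a whole, stood at 94.5 CPM (25.8 to 242) against 369 CPM, a ratio of 0.256 (0.0688 to 0.670). It passed the mean of 200 CPM only through the other members. *Gpihbp1* and *Fabp4* were still found, at 1347 CPM (1020.1 to 1745) and 4348 CPM (3742 to 5024). The 10 genes at the lower end by the naming rule, such as *Smad1*, a mediator of BMP signals, had no UMI in the 14 cells, which allows up to 70.9 CPM, against 94.8 (*Commd3*) to 128 CPM (*Arid4b*) in the other members.

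Summed lists also differed across this division, which was made after the values had been seen. The 24 arterial genes outside the rule summed to 6546 CPM (5797 to 7363) in the *Gja4* members, where *Tm4sf1* and *Mgp* gave 129 and 46 of 277 UMIs. They summed to 1966 CPM in the 33 members with *Hey1* or *Sema3g* but no *Gja4*, to 1572 CPM in the 57 members with *Sox17* and *Efnb2* only, and to 1715 CPM in the other endothelial-like cells. The venous list ran the other way, at 898 CPM (635 to 1232) in the *Gja4* members and 1722, 1748 and 1748 CPM in those 3 groups. The capillary list summed to 10208 CPM (9268 to 11218) in the *Gja4* members and to 13719, 14489 and 12994 CPM in the same groups. Lists of other kinds differed too, some higher and some lower in the *Gja4* members. Leukocyte adhesion and chemokines summed to 6569 CPM against 4375, 3948 and 4768 CPM. For TGF-beta and BMP signalling the sums were 4608 against 3794, 3085 and 3105 CPM, and for junctions 3214 against 4276, 3760 and 3518 CPM.

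Mural markers moved with the *Gja4* members, which held 58 of the 71 mural UMIs of all members, and 3 of the 14 cells had 2 or more of the markers. In the 11 cells left without those 3, mural markers gave 2 UMIs. The other arterial genes there summed to 6163 CPM (5302 to 7124), and the ratios to the other 90 members were 5.24 for *Tm4sf1*, 13.6 for *Gm35533*, 16.7 for *Mal*, 18.1 for *Mecom* and 4.65 for *Kitl*. *Thbd* and *Klf4*, with ratios of 5.69 and 4.12 over the 14 cells, had 1.16 and 1.73 over the 11. *Myh11* went from 118 to 33.7 CPM, the worth of 1 UMI, and *Rgs4* from 259.9 to 101 CPM.

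**Figure D5:**
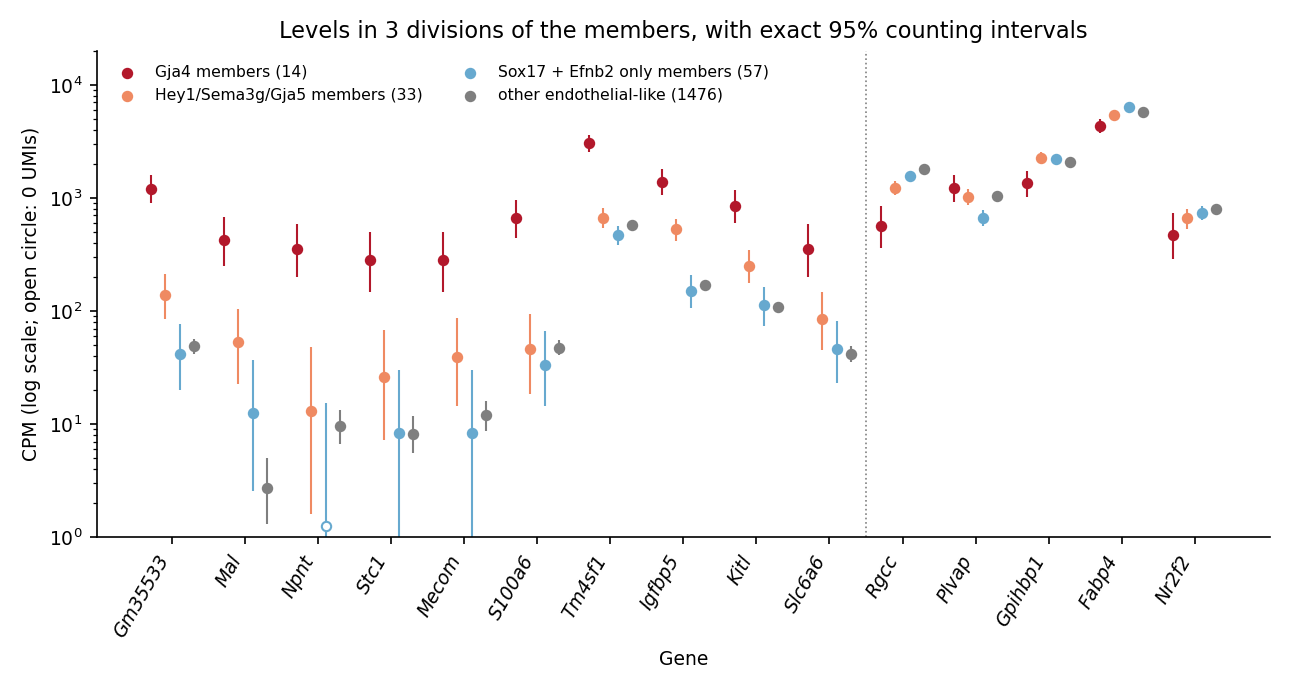
CPM (vertical axis, log scale) of selected genes in the 14 *Gja4* members, the 33 members with *Hey1* or *Sema3g*, the 57 members with *Sox17* and *Efnb2* only and the other endothelial-like cells, with lines for exact 95% counting intervals. *Gm35533* stood at 1205 CPM in the *Gja4* members. It passed the mean of 200 CPM only through them, so its height there is a description only.

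The 57 members with *Sox17* and *Efnb2* only were close to the other endothelial-like cells in these genes. Their ratio to those cells was 0.859 (0.405 to 1.62) for *Gm35533*, 0.895 (0.621 to 1.25) for *Igfbp5*, 1.04 (0.675 to 1.53) for *Kitl* and 0.817 (0.670 to 0.988) for *Tm4sf1*. Genes that led in the 57 cells were *Clic5*, with a ratio of 2.26 (1.47 to 3.38), and *Btnl9*, with one of 1.89 (1.49 to 2.36). *Adam12*, a membrane metalloprotease, came first, at 88.0 CPM (54.5 to 135) against 24.1 CPM, a ratio of 3.65 (2.15 to 5.92). Fibroblast markers moved with the 57 cells, at 214 CPM (159 to 281) against 48.3 CPM in the other endothelial-like cells, and their part in these ratios was not tested.

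The 33 members with *Hey1* or *Sema3g* but no *Gja4* had values of both kinds. *Esm1* stood highest there, at 264 CPM, a ratio of 3.90 (2.72 to 5.46) to the other endothelial-like cells, and *Igfbp5* had a ratio of 3.13 (2.45 to 3.96). *Kitl* had a ratio of 2.30 (1.60 to 3.21) and *Gm35533* of 2.84 (1.71 to 4.47). Differences between the 33 and the 57 cells were not tested.

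Against all other cells of the library, the 10 leading genes included *Sox17*, *Efnb2*, *Sema3g* and *Kdr* of the rule. Of the rest, *Flt1* had a ratio of 10.1 (9.25 to 10.98), *Btnl9* of 12.3 (10.3 to 14.6), *Adamts1*, a secreted metalloprotease, of 10.3 (9.07 to 11.7) and *Rsad2*, an interferon-induced enzyme, of 9.54 (8.19 to 11.1). *Pcdh17*, a protocadherin, had a ratio of 8.62 (7.82 to 9.48) and *Ehd3*, an endocytic protein, of 8.26 (7.72 to 8.83). Most of the cells compared here were not endothelial-like, so these ratios do not set the members apart from other endothelial-like cells. Against those cells *Btnl9* had a ratio of 1.77 (1.47 to 2.12), and none of these genes outside the rule was called higher.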

How the data were processed

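Adrenal medullae of 5 pooled mice at postnatal day 15 gave 1 library of 10x 3′ single-cell RNA. The deposited matrix holds the authors' raw UMI counts per gene and barcode, whole numbers that were not normalized. The submitters' processing notes name Cell Ranger 4.0.0 and mm10. No column belonged to another sample (0 columns). Cells with 500 to 5000 genes and at most 20% mitochondrial UMIs were kept, 10139 of 11214 barcodes, with a median of 3567 UMIs. The members and the gene lists were chosen with earlier results of these data known.

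UMIs were summed over the cells of a group and scaled to 1000000 UMIs per group (CPM). Exact Poisson intervals were used for levels, exact conditional intervals for ratios and exact binomial (Clopper-Pearson) intervals for shares, each at 95%. A count of 0 was given a limit of 3 counts. A gene was called when (CPM + 10) differed at least 2-fold and the mean of the groups was at least 20 CPM (200 CPM for the members with *Gja4*), leaving out the genes of the rule. No p-value was computed, since 1 library has no replicates. Named genes were the 20 largest folds with a UMI in 25% of members, the 15 smallest with a UMI in 25% of the other endothelial-like cells, the 10 largest over all other cells, the 10 largest each way within the members, and the largest and smallest of each list. Other list members, genes of the division of the members and genes in the equal-depth comparison were named after their values were seen. The division planned on *Gja5* was replaced by one on *Gja4*, because *Gja5* had 1 UMI. Doublets were called with Scrublet (expected rate 8%) and kept, and were left out as an alternative. Other cell classes were set by counts of marker genes. The ratio and interval code was tested on simulated data. Python 3.11.15, numpy 2.4.6, scipy 1.17.1, pandas 2.3.3, scanpy 1.11.5 and matplotlib 3.10.9 were used. Alternatives changed the cell filter, the rule, depth, doublets, the compared cells, the pseudocount and the filter on low values. The fold of 1 gene is not reported here.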

Additional observations from a re-analysis of the deposited data

How the results depend on the processing

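No paired analysis was possible because there was 1 library and the result came from no test. The share of members, 6.58%, was 1.80% after thinning to 1000 UMIs, 9.98% under a stricter cell filter (1000 genes or more, 10% mitochondrial UMIs or less), 1.08% with at least 3 arterial genes, and 2.53%, 5.38% and 1.58% when *Sox17*, *Sema3g* or *Efnb2* was taken out of the rule. It was within its interval without doublets, with at least 5 endothelial genes, or without *Gja4*, *Gja5* or *Hey1* in the rule. The counts of genes at least 2-fold higher and lower, 26 and 27, were 1631 and 863 after thinning (21 members), 496 and 342 with at least 3 arterial genes (17 members), 41 and 42 against cells with none of the 6 genes, 59 and 41 as a mean over cells, 72 and 61 with a pseudocount of 1 CPM and 3 and 7 with 50 CPM. They were 44 and 63 with a mean of at least 5 CPM or no filter, and 7 and 13 with at least 50 CPM. The higher count was 17 without cells with 2 or more mural markers and 15 without the *Gja4* members, and the lower count 13 without doublets. Of 948 folds of 79 named genes under 12 alternatives, 742 lay inside the counting interval of the gene's main CPM ratio and 190 outside it. The folds carry a pseudocount and that ratio does not, so these counts do not measure how far a fold moved. For *Mal* the main fold of 6.05 itself lay outside the interval of its ratio (11.6 to 56.2). The other 16 were folds of genes called at 2-fold that changed direction. After thinning these called genes were *Akr1cl* (1.33), *Cavin2* (1.06), *Cp* (0.534), *Depp1* (0.353), *H2-Ab1* (1.91), *Hebp1* (1.09), *Ogn* (0.851), *Prickle2* (0.433), *Rgs4* (0.851) and *Tagln* (0.417). With at least 3 arterial genes it was *Rmnd5a* (0.809), without doublets *C1qa* (1.33), without mural markers *Tagln* (0.643), without the *Gja4* members *Npnt* (0.772) and *Tagln* (0.645), and without cells rich in immune markers or red blood cell UMIs *Hbb-bt* (1.28). Named genes not called at 2-fold also changed direction. After thinning these were *Socs3* (0.175), *Btnl9* (0.808) and *Pdgfb* (0.885). With at least 3 arterial genes they were *Btnl9* (0.849) and *Hspb1* (1.009), and without cells rich in immune markers or red blood cell UMIs *Apoe* (1.003). The settings without *Gja4* members and without immune or red blood cell RNA were chosen after seeing the data. The cause was not tested where a value moved. At 2.31 CPM per UMI, genes near 20 CPM rested on about 10 UMIs or fewer in the members, and the intervals hold no variation between animals.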

Other observations

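Cells with 2 or more of the 6 arterial genes were also found outside the members. There were 28 among 355 cycling endothelial-like cells (7.89%), which the rule leaves out for their cell cycle genes. A further 43 lay among 745 cells with markers of 2 cell types (5.77%), of which Scrublet called 377 doublets. There were 5 among 2675 chromaffin-like cells, 1 among 3160 cortex-like cells and 2 among 889 unassigned cells. *Gja4* gave 3 UMIs in 3 of 17 fibroblast-like cells, a level of 106 CPM, from 28359 UMIs in all. *Hey1* gave 143 UMIs in 131 of the chromaffin-like cells, a level of 11.5 CPM.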
